A study of Xenopus laevis with 4 samples.

Results

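The Delta and Serrate ligands of the Notch pathway, the receptor notch1, its modifiers lfng and dtx4, and the hes5 target genes were followed in *Xenopus laevis* tailbud explants treated with picrotoxin, a blocker of the chloride channel of GABA-A receptors. The genes were taken by symbol from the deposited count table: every copy of dll1, dll4, dlc, jag1, notch1, lfng, dtx4 and of the numbered hes5 genes, 31 of the 39176 genes in all. *Xenopus laevis* is allotetraploid, so most genes have an L and an S copy (homeologs), and 17 of the 31 were L copies and 14 S copies. Of the dll4, dlc and dtx4 genes, only an L copy carries these symbols in the annotation. All 31 copies had counts in all 4 libraries, between 9 and 969 per library, and all 31 passed the filter on low counts.

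Embryos at stage 26 were cut behind the otic vesicle, the posterior part was kept for 3 h, and the ventral yolk was then taken off. The picrotoxin group received 0.5 mM of the drug and the control group was kept for the same time without it, in a medium that the labels do not describe. There were 2 libraries per group, each from the pooled explants of 3 embryos. No strain, genotype or clutch is given. Because each pool mixes neural tube, somites, notochord, epidermis and tailbud, fewer cells of a type and less RNA per cell cannot be told apart in these data.

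In Notch signalling a ligand of the Delta or Serrate (Jagged) type on one cell binds a Notch receptor on its neighbour. The receptor is then cleaved, and its intracellular part enters the nucleus and joins the DNA-binding protein Rbpj to switch on repressor genes of the hes and hey families. In the vertebrate neural tube, cells that start to become neurons raise Delta, and Hes5 in their neighbours represses the proneural genes and keeps those neighbours as progenitors. In the presomitic mesoderm of the tailbud the same ligands and repressors take part in somite segmentation.

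The libraries held 18164631 to 20974160 counts. Ribosomal RNA gene models took 38.0% to 42.0% of the counts in 3 libraries and 25.1% in picrotoxin replicate 2, which therefore stands apart from the others. Outside ribosomal RNA, between 11258577 and 15707090 counts remained per library. Levels below are counts per 1000000 scaled by the TMM method (CPM), and they are compared between libraries for 1 gene but not between genes, because transcript lengths were not used here. The test is edgeR's quasi-likelihood test over all 26752 genes with enough counts, with Benjamini-Hochberg adjustment, two-sided, at an adjusted p of 0.05. A log2 fold change is that of picrotoxin over control, and ± after it is its standard error.

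The Delta ligand gene dll1.S fell with picrotoxin, and it was the 1 copy of the 31 that passed the test. No copy rose. By comparison, 25 genes (0.0935% of those tested) passed as lower and 22 (0.0822%) as higher. The other 30 copies did not pass, but most of them lay on the same side. The log2 fold change was below 0 for 29 of the 31 copies, 93.5% against 50.1% of all genes tested, and its median was -0.21 beside 0.00 for all genes. This count was 23 of 31 when libraries were scaled by their totals only, a scaling that moved the median of all genes to 0.11, and 29 of 31 relative to that shift. Leaving out each library in turn left 25 to 27 copies below 0. An unadjusted p under 0.05 with a lower level was found for 8 of the 31 (25.8%, against 4.16% of all genes tested), and with a higher level for 0 of the 31 (against 3.35%). That count of lower copies was 4 with DESeq2 (12.9%, against 1.55% of all genes) and 1 with library totals only (3.23%, against 0.912%). Both picrotoxin libraries lay below both control libraries for 19 of the 31 (61.3%, against 18.9% of all genes tested), and above both for 0 (against 18.2%). The copies are not independent of each other, since L and S copies are near relatives and the hes5 genes are neighbours on the chromosome. The members were also chosen with earlier results of these data known, so these shares describe the list and do not test it.

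**Figure D1:**
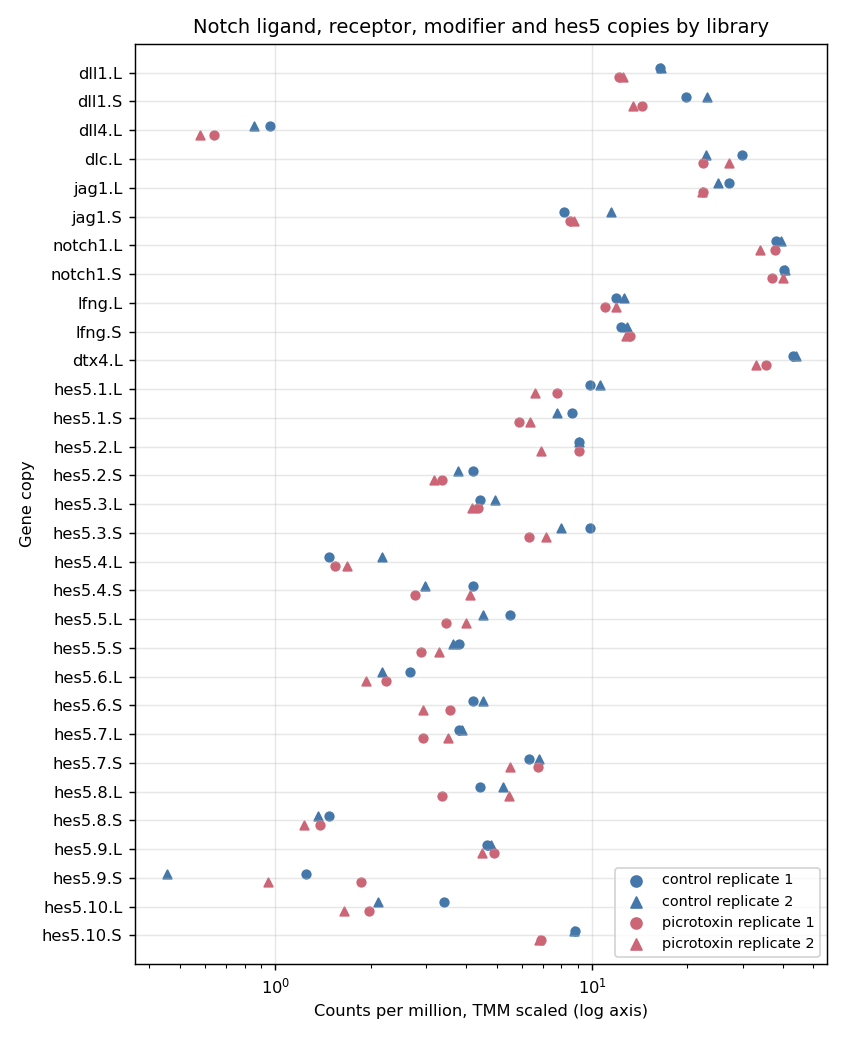
Level of each of the 31 gene copies in CPM (TMM scaled, log axis), with 1 point per library, blue for control and red for picrotoxin, circles for replicate 1 and triangles for replicate 2. The red points of dll1.L, dll1.S, dtx4.L, hes5.1.L and hes5.1.S lie left of their blue points, while those of dlc.L, lfng.S and hes5.9.L mix with them.

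Among the ligands, the copy that fell belongs to dll1, which encodes the Delta ligand of newly forming neurons and of the presomitic mesoderm. The S copy stood at 19.8 and 23.1 CPM in control replicates 1 and 2 and at 14.3 and 13.5 CPM in picrotoxin replicates 1 and 2. All picrotoxin values thus lay below all control values, with means of 21.4 ± 2.35 CPM in control and 13.9 ± 0.60 CPM in picrotoxin libraries (SD, n = 2 per group). Its log2 fold change was -0.63 ± 0.12, with an adjusted p of 0.0339 from edgeR's quasi-likelihood test, the rank of 29 among all genes by p. The 95% interval ran from -0.89 to -0.37 on the log2 scale, so that the level with picrotoxin was between 0.541 and 0.773 times that of control. With ribosomal RNA gene models removed before the fit, dll1.S kept its call (log2 fold change -0.62, adjusted p = 0.0309, edgeR's quasi-likelihood test). The call of dll1.S was kept in 8 of the 13 alternatives, yet it hangs on single libraries and settings. It was lost without control replicate 2 (log2 fold change -0.51, adjusted p = 0.478), without picrotoxin replicate 2 (-0.58, adjusted p = 0.0660) and with DESeq2 (-0.62, adjusted p = 0.177). It was also lost with library totals only (-0.52, adjusted p = 0.9996) and with the chromosome medians of each library removed (-0.57, adjusted p = 0.0509). Library totals include the ribosomal RNA counts, whose share was unequal between libraries. Over all 13 alternatives its log2 fold change stayed between -0.73 and -0.51, and the adjusted p ran from 0.000829 to 0.9996. The median gene of chromosome 5S, which holds dll1.S, had a log2 fold change of -0.05. On the log2 CPM scale centred on each gene's mean, that median was 0.08 in control replicate 2 and -0.02 in every other library.

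The L copy of dll1 had the same direction. It stood at 16.4 and 16.5 CPM in control libraries and at 12.2 and 12.53 CPM with picrotoxin, again without overlap. Its log2 fold change was -0.41 ± 0.13, which did not pass over all genes (adjusted p = 0.309, edgeR's quasi-likelihood test; 95% interval -0.67 to -0.15). With the L and S copies of every gene summed before the fit, dll1 fell by 0.53 ± 0.10 on the log2 scale (adjusted p = 0.0284). The summed level was 36.1 and 39.6 CPM in control and 26.5 and 26.0 CPM in picrotoxin libraries, which puts picrotoxin at 69.4% of the control mean. The L copy supplied 45.3% and 41.7% of the dll1 counts in control replicates 1 and 2 and 46.0% and 48.2% in picrotoxin replicates 1 and 2. These shares did not overlap between groups, but with 2 libraries a group the exact permutation test (two-sided) cannot give less than the p of 0.333 it gave here.

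The other ligands showed smaller or less precise differences. The gene jag1 encodes a Serrate-type ligand. Its L copy was at 27.1 and 25.0 CPM in control and 22.5 and 22.2 CPM in picrotoxin libraries, without overlap, and its log2 fold change was -0.22 ± 0.11 (adjusted p = 0.687). For the S copy the values overlapped between groups, at 8.18 and 11.4 CPM in control and 8.52 and 8.74 CPM in picrotoxin libraries, and the log2 fold change of -0.19 ± 0.16 turned to 0.079 without control replicate 2. The interval of jag1.L (-0.45 to 0.01) leaves out a change as large as the estimate for dll1.S. The Delta gene dlc.L, also known as delta-2, did not separate the groups at all. It stood at 29.8 and 22.9 CPM in control and at 22.4 and 27.0 CPM in picrotoxin libraries, so that the spread within each group exceeded the difference of the means. Its log2 fold change of -0.09 ± 0.13 (adjusted p = 0.938) turned to 0.11 without control replicate 1, to 0.036 without picrotoxin replicate 1 and to 0.030 with library totals only.

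The ligand dll4, best known from sprouting blood vessels, was close to the limit of these libraries. Its L copy had 17 counts in each control library and 12 and 14 in picrotoxin replicates 1 and 2, or 0.966 and 0.857 against 0.639 and 0.577 CPM. The groups did not overlap, yet the log2 fold change of -0.58 ± 0.45 had a 95% interval from -1.50 to 0.34 (adjusted p = 0.837), so a difference in dll4.L was not detectable at this depth. The markers of vascular endothelium, 10 gene copies in all, summed to 47.9 and 48.5 CPM in control and 52.8 and 61.0 CPM in picrotoxin libraries. Of these copies 8 had a log2 fold change above 0, 2 below, and 0 passed the test.

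**Figure D2:**
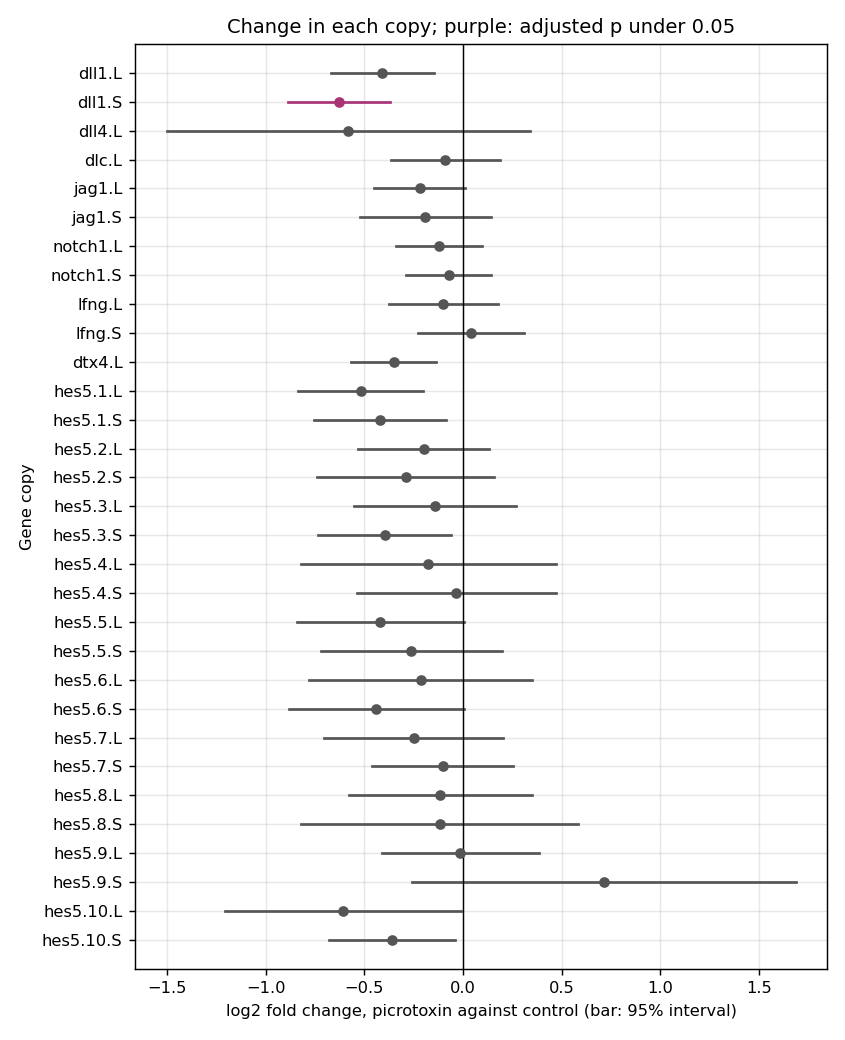
Log2 fold change of each copy, picrotoxin against control, as a point with its 95% interval from edgeR's quasi-likelihood fit. The interval lies wholly below 0 for 8 copies, among them dll1.L at -0.41 and dtx4.L at -0.35, and only dll1.S (purple, -0.63) passed over all genes, while hes5.9.S at 0.71 has the widest interval.

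The receptor and its glycosyltransferase differed little between groups. The notch1.L copy stood at 38.2 and 39.6 CPM in control and 37.8 and 33.8 CPM in picrotoxin libraries (log2 fold change -0.12 ± 0.11, adjusted p = 0.866). The notch1.S copy stood at 40.4 and 40.5 CPM in control and 37.0 and 40.0 CPM in picrotoxin libraries (-0.07 ± 0.10, adjusted p = 0.936). Both copies were lower in both picrotoxin libraries, but by amounts close to the spread between pools, and that of notch1.S turned to 0.043 with library totals only. Their 95% intervals of -0.34 to 0.10 and -0.29 to 0.14 hold no change of the size estimated for either dll1 copy. The gene lfng encodes Lunatic fringe, which adds a sugar to Notch and so alters which ligands it answers to. Its L copy was at 11.9 and 12.7 CPM in control and 11.03 and 11.9 CPM in picrotoxin libraries (-0.10 ± 0.13, adjusted p = 0.931, and 0.017 with library totals only). Its S copy was at 12.3 and 12.9 CPM in control and 13.2 and 12.8 CPM in picrotoxin libraries, so that the groups overlapped (0.04 ± 0.13, adjusted p = 0.973). The S copy lies on chromosome 9_10S, whose median gene was at a log2 fold change of 0.09, and with chromosome medians removed lfng.S was at -0.048.

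The Deltex gene dtx4 encodes a ubiquitin ligase of a family that acts on the Notch receptor inside the cell. The only copy under this symbol, dtx4.L, stood at 43.0 and 44.0 CPM in control and at 35.4 and 32.9 CPM in picrotoxin libraries. The groups did not overlap and the pools agreed closely within each, with means of 43.5 ± 0.71 and 34.1 ± 1.75 CPM (SD, n = 2 per group). Its log2 fold change of -0.35 ± 0.10 did not pass over all genes (adjusted p = 0.269, edgeR's quasi-likelihood test), although the unadjusted p of 0.00256 put it at rank 254. Over the 13 alternatives it lay between -0.40 and -0.25 and was called in 0 of them.

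The hes5 genes encode repressors that Notch switches on, and 20 of the 31 copies belong to them. On chromosome 7L the genes hes5.1.L and hes5.2.L lie next to each other, and the 8 genes hes5.3.L to hes5.10.L lie in an unbroken row elsewhere on it, with no other gene model between them. The S copies show the same arrangement on chromosome 7S. The sources do not say how reads that fit several of these related neighbours were shared out, which leaves the level of any 1 copy uncertain, and the summed level is given first. Summed over the 20 copies, hes5 stood at 102 and 97.6 CPM in control and 83.4 and 81.9 CPM in picrotoxin libraries, so that picrotoxin was at 82.7% of the control mean and the groups did not overlap. The log2 fold change was below 0 for 19 of the 20 copies, for 10 of 10 L copies (median -0.21) and 9 of 10 S copies (median -0.28), and 0 copies passed over all genes. Without overlap and lower with picrotoxin were 11 of the 20, 55.0% against the 18.9% of all genes, and 0 were higher without overlap. With library totals only, hes5.4.S (0.090), hes5.8.L (0.018) and hes5.9.L (0.095) moved above 0. Of the 20 copies, 5 (25.0%, against 4.16% of all genes) were lower with an unadjusted p under 0.05 by edgeR's quasi-likelihood test. This count was 1 with DESeq2 (5.0%, against 1.55%) and 0 with library totals only (against 0.912%), and DESeq2 also called 0.

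Within the family, hes5.1, known earlier as esr1, differed most clearly. The L copy stood at 9.89 and 10.6 CPM in control and 7.78 and 6.60 CPM in picrotoxin libraries (log2 fold change -0.52 ± 0.15, adjusted p = 0.264). The S copy stood at 8.64 and 7.77 CPM in control and 5.86 and 6.35 CPM in picrotoxin libraries (-0.42 ± 0.16, adjusted p = 0.508). Neither copy overlapped between groups. With copies summed, hes5.1 had a log2 fold change of -0.47 ± 0.12, which did not pass either (adjusted p = 0.163).

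Its neighbour hes5.2, known earlier as esr7, was closer to control. The L copy stood at 9.09 and 9.13 CPM in control and at 9.11 CPM in picrotoxin replicate 1, with a low value of 6.89 CPM in picrotoxin replicate 2 alone. Its log2 fold change of -0.20 ± 0.16 was thus 0.0028 without that library. The S copy stood at 4.21 and 3.78 CPM in control and 3.36 and 3.17 CPM in picrotoxin libraries, without overlap (-0.29 ± 0.22, adjusted p = 0.827).

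In the row of 8 genes, log2 fold changes spread more widely. Total counts there ran from 89 (hes5.9.S) to 624 (hes5.3.S and hes5.10.S), beside 289 (hes5.2.S) to 690 (hes5.1.L) for hes5.1 and hes5.2. The hes5.10.S copy was at 8.81 and 8.78 CPM in control and 6.93 and 6.80 CPM in picrotoxin libraries (log2 fold change -0.36 ± 0.15, adjusted p = 0.581). The hes5.3.S copy was at 9.89 and 7.97 CPM in control and 6.34 and 7.13 CPM in picrotoxin libraries (-0.40 ± 0.16, adjusted p = 0.548). The hes5.10.L copy was at 3.41 and 2.12 CPM in control and 1.97 and 1.65 CPM in picrotoxin libraries (-0.61 ± 0.29, adjusted p = 0.652). These 3 copies did not overlap between groups and had an unadjusted p under 0.05, though most of the difference in hes5.10.L came from control replicate 1: without it the log2 fold change was -0.23. Close behind were hes5.5.L, at 5.51 and 4.54 CPM in control against 3.46 and 3.999 CPM, and hes5.6.S, at 4.21 and 4.54 CPM against 3.57 and 2.93 CPM. They had log2 fold changes of -0.42 ± 0.21 and -0.44 ± 0.22 (adjusted p = 0.671 for both). The copies hes5.5.S, hes5.7.L and hes5.3.L were also lower without overlap, at log2 fold changes of -0.26, -0.25 and -0.14.

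At the other end, several copies showed no separation. The hes5.9.L copy stood at 4.66 and 4.79 CPM in control and at 4.90 and 4.49 CPM in picrotoxin libraries (-0.01 ± 0.19). The hes5.4.S copy stood at 4.21 and 2.98 CPM in control and at 2.77 and 4.12 CPM in picrotoxin libraries (-0.03 ± 0.24). For both, the difference of the means was smaller than the spread within a group. The hes5.8.L copy, at 4.43 and 5.25 CPM in control and 3.36 and 5.48 CPM in picrotoxin libraries, moved from -0.11 to 0.18 without picrotoxin replicate 1. The copies hes5.4.L (-0.18), hes5.6.L (-0.21), hes5.7.S (-0.10) and hes5.8.S (-0.12) also overlapped between groups. The hes5.9.S copy alone lay above 0, at 0.71 ± 0.46. It had 22 and 9 counts in control replicates 1 and 2, 35 and 23 in picrotoxin replicates 1 and 2, and its 95% interval of -0.26 to 1.69 is too wide to tell a direction. Without control replicate 2 its log2 fold change was 0.14, without picrotoxin replicate 1 it was 0.18, and it reached 1.59 without control replicate 1.

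The share of a gene's counts that came from its L copy differed between pairs and, for some, between libraries. Its range over the 4 libraries was under 10 percentage points for 11 of the 14 pairs, and wider for hes5.4 (26.0% to 42.2%), hes5.8 (70.8% to 81.6%) and hes5.9 (72.4% to 91.3%). Of the 14 pairs, the L copy held the larger share of counts in all 4 libraries for 6 pairs (jag1, hes5.1, hes5.2, hes5.5, hes5.8 and hes5.9) and the S copy for 7, with notch1 near equal parts. For jag1 the L copy supplied 76.8% and 68.6% of the counts in control and 72.5% and 71.8% in picrotoxin libraries. For hes5.10 it supplied 27.9% and 19.4% in control and 22.2% and 19.5% in picrotoxin libraries. The mean share differed between groups by under 5 percentage points for 13 of the 14 pairs. The largest difference was that of hes5.9, 85.1% ± 8.84 in control and 77.5% ± 7.17 in picrotoxin libraries (SD, n = 2 per group), within the spread of the pools. The groups' shares did not overlap for dll1, lfng and hes5.5, 3 of 14 pairs (21.4%, against 34.5% of the 5774 pairs with at least the 424 counts of the smallest pair here), and for these 3 the exact permutation test over the 4 libraries reached the smallest p it can give, 0.333. A share within a pair also depends on the lengths of the 2 transcripts, so only its change between libraries is read here.

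**Figure D3:**
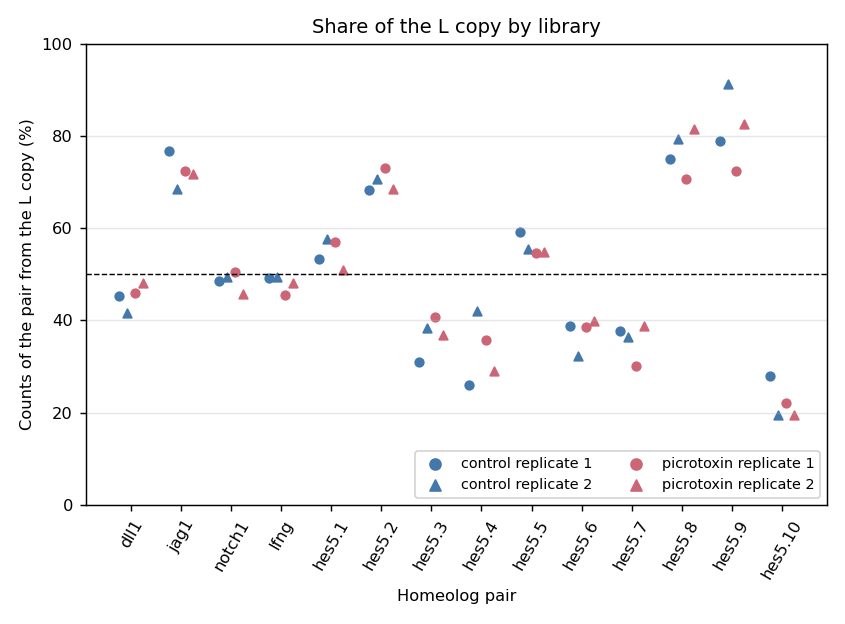
Percent of the counts of each homeolog pair that came from the L copy, with 1 point per library, blue for control and red for picrotoxin, and a dashed line at equal shares. Pairs differ widely, from about 20% for hes5.10 to above 70% for hes5.8 and hes5.9, and the libraries of hes5.4, hes5.8 and hes5.9 spread over more than 10 percentage points.

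Below the gene level the table gives 2 transcript models for 3 of the copies. The models of jag1.L shared its counts, the first taking 57.4% and 63.7% in control and 65.0% and 50.7% in picrotoxin libraries, with overlap. The second model of jag1.S was estimated at 0 in replicate 1 of both groups and took 14.3% in control replicate 2 and 12.48% in picrotoxin replicate 2. The second model of hes5.7.S likewise had next to no counts in replicate 1 of either group, and 18.2% and 24.9% in replicate 2 of control and picrotoxin. Neither pattern follows the drug. Such estimates at or near 0 beside at least 20 counts were also found elsewhere among the 80178 transcripts. Under 1 in both replicate 1 libraries and at 20 or more in both replicate 2 libraries were 236 transcripts. Another 196 were under 1 in both control libraries and at 20 or more in both picrotoxin libraries. The reverse patterns held 120 transcripts that were low in replicate 2 and 160 that were low in picrotoxin.

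Taken as 1 list, the rest of the pathway lay close to the background of all genes, though its roles differed, as given below. A list of other Notch genes held 113 gene copies with a role from ligand to target, of which 99 had enough counts to test. Of these 0 rose, 0 fell and 99 did not pass by edgeR's quasi-likelihood test; with an unadjusted p under 0.05 were 6 lower (6.06%) and 2 higher (2.02%), near the 4.16% and 3.35% of all genes. DESeq2 also called 0 of the 99, and 1 was lower with an unadjusted p under 0.05. The log2 fold change was below 0 for 51 and above 0 for 48, with a median of -0.017. Whether the members and this list differ was not tested.

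Of the other ligands and the steps around them, 0 copies passed the test. Both picrotoxin libraries lay above both control libraries for 3 of 7 ligand copies (42.9%, against 18.2% of all genes tested). The same held for 2 of 5 glycosylation (40%) and 4 of 12 ligand uptake copies (33.3%). It held for 0 of 4 receptor and 1 of 15 cleavage copies (6.67%). Below both lay 1 ligand, 0 glycosylation, 2 uptake, 1 receptor and 3 cleavage copies (14.3%, 0%, 16.7%, 25% and 20%, against 18.9%). The Delta-like gene dlk2.L, a ligand-like protein without the usual Delta domain, was at 7.79 and 8.02 CPM in control and 9.27 and 10.3 CPM in picrotoxin libraries (log2 fold change 0.31 ± 0.15, adjusted p = 0.651). The ligase gene neurl1b.L, which promotes uptake of Delta, was at 15.0 and 15.8 CPM in control and 19.1 CPM in both picrotoxin libraries (0.31 ± 0.12, adjusted p = 0.522). Both were higher without overlap, the opposite side from dll1. The receptors notch2.L (-0.05), notch2.S (0.12) and notch3.L (-0.10) stayed near 0, and the signs of all 3 flipped under at least 1 alternative. The fringe and sugar transferase copies had a median of 0.06 over 5 copies, with poglut1.S at 0.23, eogt.L at 0.23 and rfng.L at -0.09. In the cleavage machinery 11 of 15 copies were below 0 (73.3%, against 50.1% of all genes tested). The lowest was the presenilin gene psen2.L, a gamma-secretase subunit, at -0.38 ± 0.17. For it, edgeR's quasi-likelihood test gave an adjusted p of 0.593. Scaled by library totals only, 2 of the 15 were below 0, with a median of 0.07. That scaling moved the median of all genes to 0.11 and left 7979 of the 26752 genes tested below 0.

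In the nucleus, both copies of rbpj, the DNA-binding partner of cleaved Notch, were lower without overlap. The rbpj.L copy was at 8.24 and 9.38 CPM in control and 7.298 CPM in both picrotoxin libraries (-0.27 ± 0.16, adjusted p = 0.734). The rbpj.S copy was at 6.36 and 5.40 CPM in control and 4.63 and 4.70 CPM in picrotoxin libraries (-0.33 ± 0.19, adjusted p = 0.733). These differences did not pass, and their standard errors are large beside them. In the same complex, maml2.S was higher without overlap (0.68 ± 0.57) and did not pass. It had only 7 and 6 counts in control and 13 and 11 in picrotoxin libraries. The Deltex relative dtx1.L was at -0.49 ± 0.29 (adjusted p = 0.759), and single libraries decide its size: -0.18 without picrotoxin replicate 2, -0.32 without control replicate 2 and -0.82 without picrotoxin replicate 1. Another Deltex relative, dtx3.L, went the other way, at 0.83 ± 0.49, without overlap and without passing. It had 10 and 7 counts in control and 16 and 19 in picrotoxin libraries.

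The other hes and hey repressors lay, for the most part, above 0. Of 14 copies tested, 10 had a log2 fold change above 0 and 4 below (28.6%, against 50.1% of all genes tested). The median was 0.11, and 0 passed. The hes4.L copy was at 25.5 and 24.9 CPM in control and 28.6 and 28.0 CPM in picrotoxin libraries (0.17 ± 0.11, adjusted p = 0.786). The hey1.L copy was at 43.2 and 45.2 CPM in control and 49.1 and 48.4 CPM in picrotoxin libraries (0.14 ± 0.10, adjusted p = 0.825). The 4 below 0 were hes6.1.S, hes7.2.L (-0.22), hes1.S (-0.21) and hes6.1.L (-0.12). The hes6.1.S copy was at 26.2 and 29.1 CPM in control and 21.2 and 23.7 CPM in picrotoxin libraries (-0.30 ± 0.11, adjusted p = 0.505). It belongs to hes6, which in neurogenesis promotes neuron formation and counters other Hes proteins.

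Genes that stand above dll1 in neurons and beside it in the segmenting mesoderm were also examined. Among proneural factors, neurog1.L, which encodes a neurogenin that switches on Delta, was at 5.23 and 3.48 CPM in control and 2.34 and 2.80 CPM in picrotoxin libraries (-0.74 ± 0.24, adjusted p = 0.378). Without control replicate 1, whose value was the highest, its log2 fold change was -0.42, and over the 4 libraries left out in turn it ran from -1.01 to -0.42. The related factor copies neurod4.S (-0.50) and neurod4.L (-0.25) were below 0, but the median of the 9 proneural copies tested was 0.00. The other neurogenin copies tested, neurog2.L (0.07), neurog2.S (0.22) and neurog3.S (0.001), did not lie below 0. Of the 12 presomitic oscillator and boundary copies 9 were below 0 (75.0%, against 50.1% of all genes tested), with a median of -0.25. With an unadjusted p under 0.05 by edgeR's quasi-likelihood test, 3 of them (25.0%, against 4.16% of all genes) were lower and 0 higher. That count of lower copies was 0 with DESeq2 and with library totals only. Both picrotoxin libraries lay below both control libraries for 5 of the 12 (41.7%, against 18.9% of all genes), and above both for 0. The 3 copies with a log2 fold change above 0 were mespa.L (0.14), mesp2.L (0.27) and mesp2.S (0.04). The segment boundary gene ripply2.2.S was at 15.3 and 14.7 CPM in control and 12.6 and 10.5 CPM in picrotoxin libraries (-0.38 ± 0.13, adjusted p = 0.450). The mespb.L copy, of a segmental prepatterning factor, was at 1.93 and 1.36 CPM in control and 0.799 and 0.990 CPM in picrotoxin libraries (-0.86 ± 0.37, adjusted p = 0.576), and the Eph receptor gene epha4.S was at -0.28 ± 0.12 (adjusted p = 0.609).

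**Figure D4:**
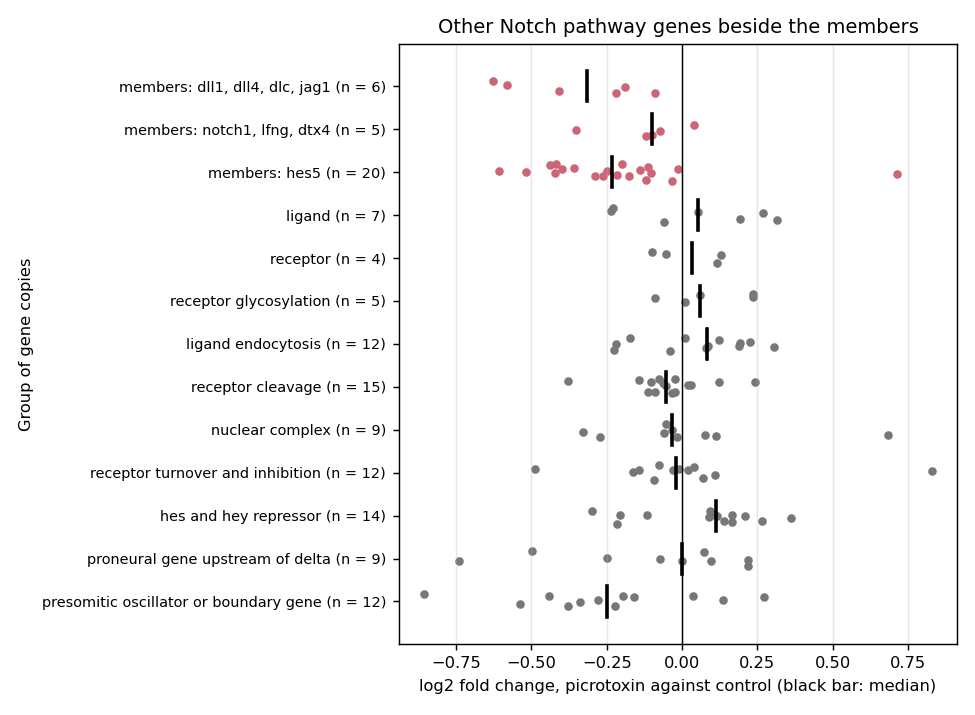
Log2 fold change, picrotoxin against control, of the 31 members (red) and the 99 tested copies of the other Notch list (grey) by role, with 1 point per copy and a black bar at each median. The medians of the hes5 members (-0.23) and the presomitic genes (-0.25) lie left of 0, and that of the other hes and hey repressors (0.11) right of it.

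Marker lists of neural progenitors, neurons and presomitic mesoderm, cells known to carry these transcripts, had median log2 fold changes below 0, at -0.49, -0.28 and -0.15, though only 1 copy on these lists, fabp7.L, passed the test. Neural progenitor markers, 10 copies of sox2, sox3, nes, fabp7, msi1 and pax6, summed to 184 and 175 CPM in control and 128 and 130 CPM in picrotoxin libraries, or 71.9% of the control mean. All 10 copies had a log2 fold change below 0, and fabp7.L fell while the other 9 did not pass. Neuron markers, 11 copies with 9 below 0 and 0 past the test, summed to 310 and 280 CPM in control and 260 and 220 CPM in picrotoxin libraries. Presomitic and tailbud markers, 12 copies with 10 below 0 and 0 past the test, summed to 138 and 123 CPM in control and to 99.2 and 123 CPM in picrotoxin replicates 1 and 2, so that picrotoxin replicate 2 was level with control replicate 2. The cdx4 copies weigh most in this sum. The mean of cdx4.L was 38.4 CPM in control and 27.9 CPM in picrotoxin libraries (log2 fold change -0.45). That of cdx4.S was 23.7 and 18.7 CPM (-0.33). Above 0 lay tbx6.L (0.03) and tbx6.S (0.20). None of these markers was at 0 in all libraries. Of all genes tested, 50.1% had a log2 fold change below 0. By edgeR's quasi-likelihood test, 8 of the 10 neural progenitor copies (80%) were lower with an unadjusted p under 0.05, against 4.16% of all genes. For neuron markers it was 4 of 11 (36.4%) and for presomitic markers 2 of 12 (16.7%). These 2 presomitic copies were cdx4.L and cdx4.S, the homeologs of 1 gene. The counts for neural progenitor, neuron and presomitic markers were 7, 5 and 2 with DESeq2 (against 1.55% of all genes). With library totals only they were 2, 0 and 0 (against 0.912%). Thus dll1 stood at 69.4%, hes5 at 82.7% and dtx4.L at 78.4% of their control means where the neural progenitor markers stood at 71.9%, the neuron markers at 81.3% and the presomitic markers at 85.0%. The part of these cell types in the lower dll1, dtx4 and hes5 levels was not tested.

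Markers of other tissues lay on either side of control. The summed level of somite and skeletal muscle markers was at 96.2% of the control mean, with 3 of 10 copies below 0 and a median log2 fold change of 0.098. That of multiciliated cell markers was at 93.6%, with 3 of 6 tested copies below 0 and a median of -0.08. That of epidermis markers was at 108%, with 3 of 7 copies below 0 and a median of 0.11, and these 3 sums overlapped between groups. One epidermal keratin copy, krt12.5.S, rose, at 643 and 714 CPM in control and 1139 and 1230.0 CPM in picrotoxin libraries (log2 fold change 0.80, adjusted p = 0.000593, edgeR's quasi-likelihood test). The notochord sum was at 104%, higher in both picrotoxin libraries, though 4 of its 6 copies were below 0 and the median was -0.13. The pronephros sum was at 90.5%, lower in both picrotoxin libraries, with 6 of 7 copies below 0 and a median of -0.17. Apart from krt12.5.S, 0 copies on these 5 lists passed. All copies found for these lists had counts, but the planned markers des (muscle), krt5.7 (epidermis) and noto (notochord) matched no gene.

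**Figure D5:**
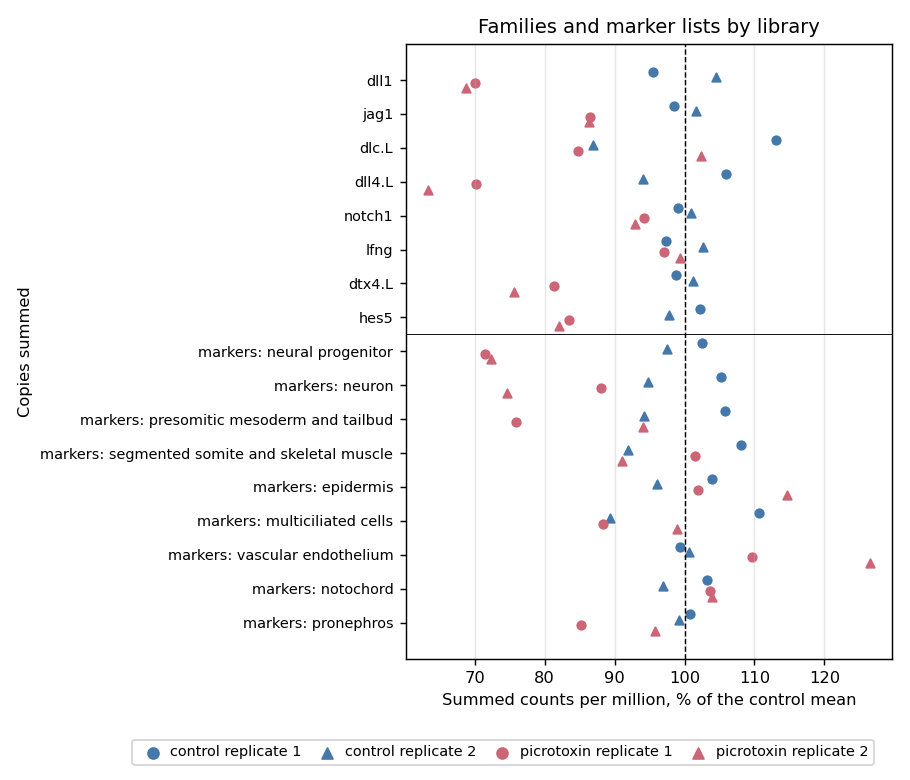
Summed CPM of each member family (above the line) and each marker list (below it) as a percent of the control mean, with 1 point per library, blue for control and red for picrotoxin. The red points of dll1 lie at 70.1% and 68.7%, beside 71.4% and 72.3% for the neural progenitor markers, while lfng, skeletal muscle and multiciliated cell markers mix with control.

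Genes with a pattern most like that of dll1 were sought over the 4 libraries. On the log2 CPM scale, centred on each gene's mean, the average of dll1.L and dll1.S was at 0.20 and 0.31 in control replicates 1 and 2 and at -0.24 and -0.27 in picrotoxin replicates 1 and 2. Among 13399 named genes averaging 5 CPM or more, the closest by root mean square distance were lrpap1.L (0.03), ankrd65.L (0.03), rad17.L (0.04), gstcd.L (0.04) and cisd2.L (0.04). Of these, lrpap1.L, rad17.L, gstcd.L and cisd2.L all lie on chromosome 1L, and ankrd65.L lies on 7L. How many of the 13399 genes lie on 1L was not counted, so no clustering is read from this. The lrpap1.L copy stood at 31.7 and 35.7 CPM in control and 23.0 and 22.6 CPM in picrotoxin libraries (log2 fold change -0.57, adjusted p = 0.0320, edgeR's quasi-likelihood test). Since lrpap1.L was picked for its likeness to dll1, this p is no separate evidence. In all, 112 of the 13399 genes lay within a distance of 0.1, so the pattern over 4 libraries was not particular to dll1. How many genes lie as close to the pattern of another gene was not tested.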

How the data were processed

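RNA was extracted as total RNA and made into directional libraries, per the labels' protocols. The authors deposited 1 table of estimated counts for 80178 RefSeq transcripts, not scaled. Which aligner, counter and build made it was not given in the sources used here. All 80178 transcripts were found by accession and version in RefSeq's Xenopus_laevis_v10.1 gene table, and were summed by symbol to 39176 genes and rounded. That gene table served to assign transcripts to symbols, and for ribosomal RNA gene models, chromosomes and gene order. Whole counts had been planned, and rounded estimated counts took their place. The fit used filterByExpr, TMM scaling, estimateDisp, glmQLFit (robust) and glmQLFTest in edgeR 4.0.16 with R 4.3.3. Standard errors came from the F statistic. The 2 libraries of a group are separate pools, and whether they come from different clutches is not stated, so p-values rest on the spread between pools. The fit draws each gene's spread toward that of genes of like level. Standard errors, intervals and p-values thus rest in part on other genes. For dll1.L and dlc.L the standard errors were 0.126 and 0.132, although their control SDs were 0.09 and 4.87 CPM. Every pair of libraries differed beyond sampling noise (the chi-square over genes was at least 4.16 times its degrees of freedom). The fit was tested on simulated data. The members, lists and tests were chosen with earlier results of these data known. Of the 82 symbols of the other Notch list, 16 matched no gene in the table. Named were all members, at least 1 of the 3 genes per role with the smallest p, and the 5 genes most like dll1. Alternatives used DESeq2 1.42.0, other scalings and filters, left-out libraries and a replicate block. Others summed the L and S copies, removed ribosomal RNA gene models or removed chromosome medians.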

Additional observations from a re-analysis of the deposited data

How the results depend on the processing

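Of the 402 values of the 31 members under the 13 alternatives, 375 kept their direction and side of the threshold and 21 changed sign. With the other named Notch genes it was 754 of 789, and the largest value among the reversed ones was 0.23. In the alternative with L and S copies summed, both copies of a pair carry the value of their sum, which was counted for each. The 47 genes called became 22 with library totals only, 189 with no filter on low counts, 22 with DESeq2 and 28 with chromosome medians removed, and between 15 and 158 when 1 library was left out (15 without control replicate 2, 131 without picrotoxin replicate 1, 158 without picrotoxin replicate 2). The 1 member called became 0 with library totals only, DESeq2 and chromosome medians removed, and 0 or 1 when 1 library was left out. After removal of ribosomal RNA gene models, 56 genes and 1 member were called. With no filter, the added genes change the fitted spread and the number adjusted over. The cause of the other changes was not tested. The replicate numbers share no stated origin, and same-numbered pools did not deviate together (correlation -0.02 over genes); with the replicate block 41 genes and 1 member were called, and dll1.S kept its call (adjusted p = 0.0490). Library totals only turned dlc.L (0.030), hes5.4.S (0.090), hes5.8.L (0.018), hes5.9.L (0.095), lfng.L (0.017), notch1.S (0.043), notch2.L (0.059), notch3.L (0.0068) and rfng.L (0.030) above 0; that scaling moved the median gene to 0.11, and all 9 lie below this median. Summing copies turned hes5.9 (0.13), lfng (-0.023, against lfng.S) and notch2 (0.047, against notch2.L), and chromosome medians removed turned lfng.S (-0.048). With 1 library left out, the ranges of the copies that changed sign were -0.27 to 0.11 (dlc.L), -0.40 to 0.0028 (hes5.2.L), -0.41 to 0.14 (hes5.4.L), -0.36 to 0.23 (hes5.4.S), -0.25 to 0.046 (hes5.7.S), -0.53 to 0.18 (hes5.8.L), -0.073 to 0.055 (hes5.9.L), -0.40 to 0.079 (jag1.S), -0.13 to 0.038 (notch2.L), -0.011 to 0.27 (notch2.S), -0.19 to 0.0038 (rfng.L) and -0.12 to 0.55 (eogt.L). The members with the fewest counts over the 4 libraries were dll4.L (60) and hes5.9.S (89), with at most 17 and 35 in a library. For hes5.9.S the pools of a group also differed, at 22 and 9 counts in control and 35 and 23 in picrotoxin libraries.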
